A study of Homo sapiens with 4 samples.

Results

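The genes described here are the translation initiation and elongation factors of human cells, the proteins that bring a ribosome to the start codon and then move it along the mRNA. Members were taken by symbol: the name had to begin with EIF and a digit from 1 to 6, or with EEF and 1 or 2. The kinases and binding proteins named EIF2AK and EIF4EBP, EEF1E1, antisense transcripts and pseudogene symbols were left out. Enzymes named after the factor they modify, such as EEF2K, are therefore members too. Of 76 matching symbols 63 remained, among 60609 gene identifiers in the table, and 59 of them, those whose normalized count averaged 1 or more over the libraries, were tested. EEF1G, EIF4E1B and the read-through gene EEF1AKMT4-ECE2 were listed at 0 in all 4 libraries and could not be tested, and EIF1AY is counted without a level. Every count below is over the tested members.

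Expression was measured by RNA sequencing in CCRF-CEM/HA-AMPKa2 cells. CCRF-CEM is an established human T cell acute lymphoblastic leukemia line, and by its name the derivative carries an HA-tagged alpha 2 catalytic subunit of AMPK, the cell's energy-sensing kinase; both groups had it. The Ctrl group (2 libraries, CTRL_7 and CTRL_8) and the No glucose group (2 libraries, ONG_9 and ONG_10) were kept for 24 hours in control medium or in medium without glucose, the cells having been grown in RPMI with serum. Nothing in the labels ties replicates to separate cultures, and the p-values therefore reflect only how much these libraries scattered, which may be technical.

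Initiation begins when eIF2, carrying GTP and the initiator tRNA, joins the small ribosomal subunit together with eIF1, eIF1A, eIF3 and eIF5, and this complex is brought to capped mRNA by eIF4E, eIF4G and the helicase eIF4A. eEF1A then delivers each aminoacyl-tRNA, and eEF2 translocates the ribosome. Both processes are braked when energy or nutrients are short: phosphorylation of eIF2 alpha blocks its recharging by eIF2B, 4E-BP proteins occupy eIF4E, and eEF2 kinase, a kinase known to be switched on through AMPK, inhibits eEF2. Many elongation factor mRNAs and a few eIF3 mRNAs begin with a terminal oligopyrimidine (TOP) tract, a cytosine followed by a run of pyrimidines, through which their own translation is controlled.

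CTRL_7 held 96698709 recovered reads, and the other libraries held between 19035535 and 24513840. All 12 T lineage markers checked, among them CD3D, CD3E, CD7 and LCK, averaged 50 or more in normalized counts, with a summed level from 87091 to 88710 in Ctrl and from 87027 to 88447 without glucose. None of 5 myeloid and 5 erythroid markers reached 50, and MPO and HBB were at 0. Of 5 B cell markers only CD79A and CD79B passed 50, and the list summed to 894 and 907 in Ctrl and to 523 and 536 without glucose. Of 6 genes listed as markers of adherent cells EPCAM and VIM passed 50, and that list summed to 15570 and 15999.9 in Ctrl against 19481 and 20620.5 without glucose. The part of these markers in the results below was not tested, and their sums do not tell which cells the RNA came from. In bulk RNA, fewer cells that express a gene and less of its RNA per cell cannot be told apart.

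Without glucose, mRNA levels fell for 31 of 47 tested initiation factor members (66.0%) and for 7 of 12 tested elongation factor members (58.3%). Their median log2 fold changes were -0.35 and -0.26. The lower elongation members were enzymes that modify the factors (EEF2K, EEF2KMT, EEF1AKMT1, EEF1AKMT3, EEF1AKMT4 and EEF1AKNMT) and, of the factors themselves, only EEF1B2. The main elongation factors eEF1A1 and eEF2 did not pass the test, and neither did the abundant initiation factors EIF4G2, EIF4B and EIF4A2. By limma with Benjamini-Hochberg adjustment over all genes, at an adjusted p under 0.05, 38 of the 59 tested members were lower, 3 were higher and 18 were not called. Over all 27486 genes tested, 20.7% were lower and 14.4% were higher. Well-expressed genes were called more often: 47.2% of the 10656 coding genes that averaged 50 or more fell, and 18.9% rose. Of the 55 members at that level 38 fell (69.1%) and 3 rose (5.45%). The median log2 fold change, on the log2(normalized count + 1) scale used for every fold change here, was -0.35 for these 55 members and -0.20 for the coding genes. Scaling to total reads, which shifts members and coding genes alike, moved the coding median to 0.01 and left 26 members lower and 11 higher. The count of lower members was 25 without CTRL_7, and that of higher members was 2 without either control, 5 without ONG_9 and 9 without ONG_10.

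**Figure D1:**
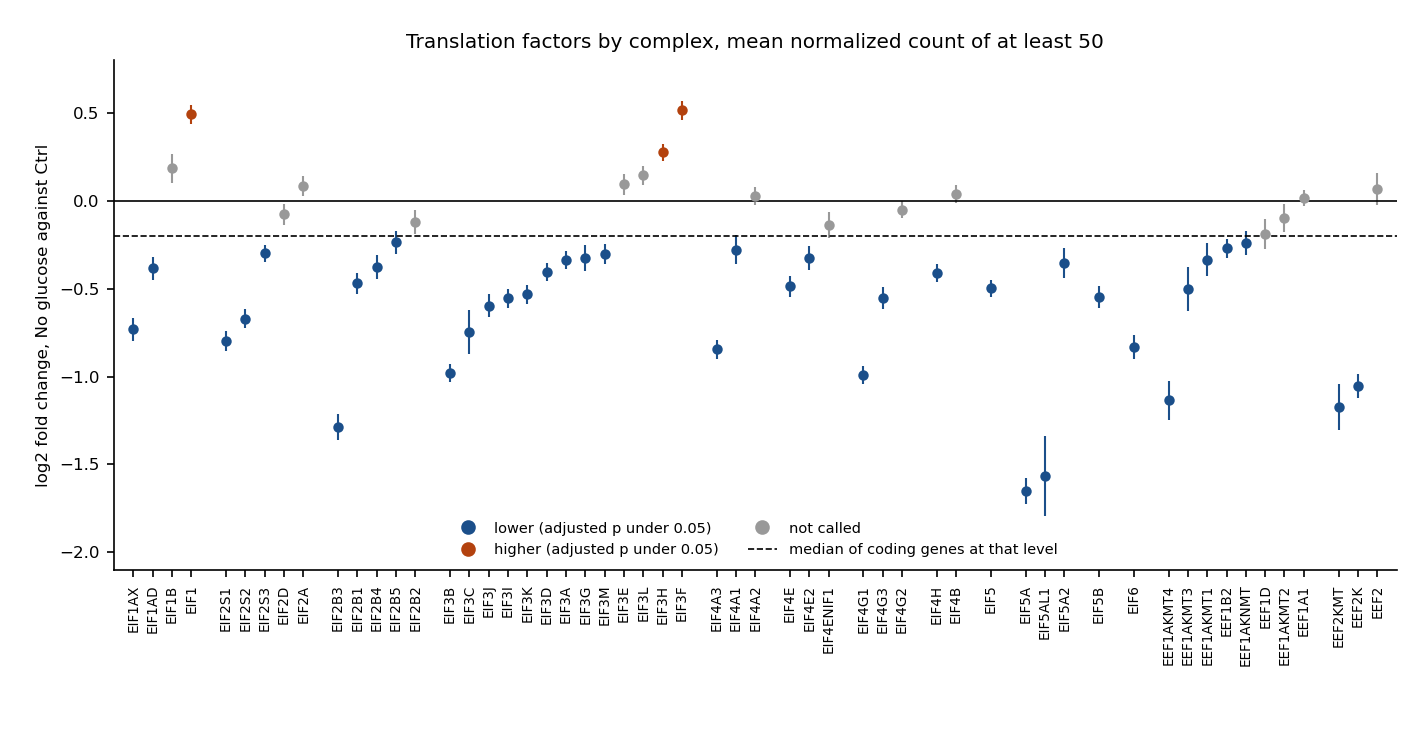
Log2 fold change, No glucose over Ctrl, of the 55 members with a mean of at least 50, grouped by factor along the horizontal axis, with colour for the limma call, bars for the standard error and a dashed line at the coding-gene median of -0.20. Most groups lie below 0, EIF5A is lowest at -1.65, and the called members above 0 are EIF1, EIF3F and EIF3H.

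Among the eIF1 group, which scans for the start codon, the members moved in opposite directions. EIF1, the gatekeeper that rejects poor start codons, had normalized counts of 4686 and 4642 in Ctrl and 6729 and 6401 without glucose. Both No glucose libraries lay above both controls, and the gene rose by 0.49 ± 0.05 (log2, SE; limma adjusted p = 2.59e-05). EIF1AX, the X-linked copy of eIF1A, had 5423 and 5417 in Ctrl and 3463 and 3077 without glucose, a log2 fold change of -0.73 (limma adjusted p = 5.15e-06). EIF1B, the close paralogue of EIF1, had 891 and 924 in Ctrl and 1104 and 964 without glucose, and its log2 fold change of 0.18 did not pass the test (limma adjusted p = 0.113). EIF1B was called higher with scaling to library totals, at 0.40. EIF1AD, an eIF1A-domain protein, fell by 0.38 on the log2 scale, a call that ended without CTRL_7 (limma adjusted p = 0.073).

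The 3 subunits of eIF2, the carrier of initiator tRNA, all fell, by unequal amounts. EIF2S1, the alpha subunit on which the stress kinases act, had 9527 and 9270 normalized counts in Ctrl and 5677 and 5147 without glucose, with a log2 fold change of -0.80 ± 0.06 (SE; limma adjusted p = 1.36e-06). EIF2S2, the beta subunit, had 10106 and 10032 in Ctrl and 6506 and 6149.9 without glucose, a log2 fold change of -0.67 (limma adjusted p = 1.99e-06). EIF2S3, the GTP-binding gamma subunit, fell least, by 0.30, and it was not called without either control library (limma adjusted p from 0.089 to 0.096) or with scaling to library totals. Its autosomal copy EIF2S3B had a mean normalized count of 39.1 and may share reads with it. EIF2A and EIF2D, which can bring initiator tRNA to the ribosome without eIF2, had log2 fold changes of 0.08 and -0.08 and were not called. EIF2A was called higher with scaling to library totals, at 0.29.

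eIF2B, the exchange factor that recharges eIF2 with GTP, had 4 of 5 subunits lower and none higher. The largest difference was in EIF2B3, the gamma subunit (hg38, chr1:44850522-44986722, minus strand). Its normalized counts were 2450.5 and 2294 in Ctrl and 1022 and 926 without glucose, 41.1% of the Ctrl mean, with a log2 fold change of -1.28 ± 0.07 (SE; limma adjusted p = 2.32e-07). The groups were far apart, and the other subunits moved much less. EIF2B1, the alpha subunit, had a log2 fold change of -0.47, EIF2B4 of -0.38 and EIF2B5, the catalytic epsilon subunit, of -0.24. EIF2B4 was not called without CTRL_7 (limma adjusted p = 0.069), nor EIF2B5 without CTRL_7 or CTRL_8 (limma adjusted p = 0.23 and 0.20). EIF2B2 had a log2 fold change of -0.12 and was not called.

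eIF3, the scaffold that holds the small subunit open for mRNA, was split: 9 of its 14 tested members were lower and EIF3F and EIF3H were higher. EIF3B, a core subunit, had 12687 and 12683 normalized counts in Ctrl and 6362 and 6506 without glucose, a log2 fold change of -0.98 ± 0.05 (SE; limma adjusted p = 1.02e-07). EIF3I, its WD-repeat partner, had 8823 and 8811 in Ctrl and 6159 and 5844 without glucose, a log2 fold change of -0.56. EIF3J, a loosely bound subunit, had 4587 and 4757 in Ctrl and 3255 and 2929.7 without glucose, a log2 fold change of -0.60. In each of these genes both No glucose libraries lay far below both controls. EIF3K, a small subunit, had 6933 and 7069 in Ctrl and 4729 and 4953 without glucose, a log2 fold change of -0.53. EIF3C had 305 and 282 in Ctrl and 159 and 191 without glucose, with a log2 fold change of -0.75, but its near-identical copy EIF3CL, with a mean of 3.73, makes its counting uncertain. EIF3D, a subunit that can bind the cap itself, fell by 0.40.

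EIF3A, EIF3G and EIF3M fell by 0.34, 0.32 and 0.30 on the log2 scale, and none of these calls held without CTRL_7 or without CTRL_8 (limma adjusted p from 0.055 to 0.15). EIF3F, one of the paired MPN-domain subunits (hg38, chr11:7970251-8001862, plus strand), went the other way. It had 4398 and 4307 normalized counts in Ctrl and 6359 and 6088 without glucose, 143% of the Ctrl mean, with a log2 fold change of 0.52 ± 0.05 (SE; limma adjusted p = 1.88e-05). EIF3H, its MPN-domain partner, had 8039 and 7960.1 in Ctrl and 9751 and 9617 without glucose, a log2 fold change of 0.28 (limma adjusted p = 0.000974), which was not called without CTRL_7 or CTRL_8 (limma adjusted p = 0.11 and 0.12). The subunits EIF3E and EIF3L had log2 fold changes of 0.09 and 0.14 and were not called. With scaling to library totals both were called higher, at 0.30 and 0.36. EIF3L was also called higher by edgeR with DESeq2 size factors (0.15), by limma-voom with TMM scaling (0.10) and with a filter at a mean of 10 (0.14). It was not called by edgeR with TMM or by DESeq2. Of the exonic bases of EIF3L 41.1% are shared with another annotated gene.

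**Figure D2:**
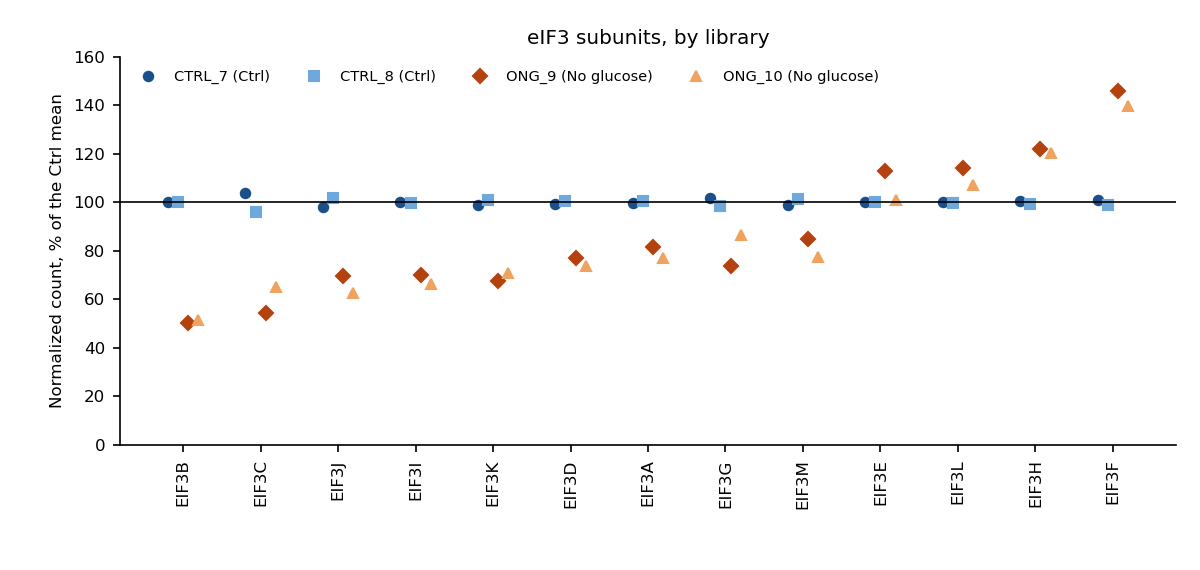
Normalized counts of 13 eIF3 subunits in each library, as a percentage of the Ctrl mean. The No glucose libraries of EIF3B lie near 50% and those of EIF3F rise furthest, to a mean of 143%, with EIF3E and EIF3L between the lowered and raised subunits.

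The cap-binding complex eIF4F showed its largest change in the scaffold. EIF4G1, which joins eIF4E, eIF4A and poly(A)-binding protein (hg38, chr3:184314495-184335358, plus strand), had 18225 and 17849 normalized counts in Ctrl and 8821 and 9364 without glucose, 50.4% of the Ctrl mean. Its log2 fold change was -0.99 ± 0.05 (SE; limma adjusted p = 1.17e-07). EIF4G3, its homologue, had 4977 and 5123 in Ctrl and 3610.1 and 3272 without glucose, a log2 fold change of -0.55. EIF4G2 (DAP5), a homologue that lacks the eIF4E-binding region, had 47528 and 47540.1 in Ctrl and 47488 and 44349.9 without glucose, a log2 fold change of -0.05 (limma adjusted p = 0.463). Thus EIF4G2 was near its control level in ONG_9 and slightly below it in ONG_10. Its call turned with the scaling and the tool: higher at 0.16 with library totals, and lower at -0.09 by limma-voom with TMM scaling (limma-voom adjusted p = 0.0016). By edgeR with TMM it was not called.

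EIF4E, the cap-binding protein, had 3456 and 3509.9 normalized counts in Ctrl and 2575 and 2397 without glucose, a log2 fold change of -0.49 (limma adjusted p = 7e-05). EIF4E2, the cap-binding repressor 4EHP, had 1885 and 1989 in Ctrl and 1592 and 1499.9 without glucose, a log2 fold change of -0.33 that was not called without CTRL_7 or CTRL_8 (limma adjusted p = 0.067 and 0.13). EIF4E3 was near the limit of detection, with 2.4 and 2.68 in Ctrl and 4.55 and 1.4 without glucose, and EIF4ENIF1, the eIF4E transporter, had a log2 fold change of -0.14 and was not called.

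Of the helicases, EIF4A3, the core of the exon junction complex, had 6003 and 5959 normalized counts in Ctrl and 3358 and 3299 without glucose, a log2 fold change of -0.85 (limma adjusted p = 4.48e-07). EIF4A1, the main helicase of eIF4F, had 861 and 793 in Ctrl and 705 and 658 without glucose. Its log2 fold change of -0.28 was not called without CTRL_7, CTRL_8 or ONG_10 (limma adjusted p from 0.088 to 0.31), and 48.6% of its exonic bases are shared with other annotated genes, among them a read-through from SENP3. EIF4A2, its paralogue, had 11645 and 11758 in Ctrl and 12281 and 11552 without glucose, and its groups overlapped. The helicase cofactors parted: EIF4H fell by 0.41, while EIF4B, with 14043 and 14113 in Ctrl and 15001 and 13930.2 without glucose, had a log2 fold change of 0.04. With scaling to library totals EIF4A2 and EIF4B were called higher, at 0.24 and 0.25.

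The late-acting initiation factors all fell. EIF5, which triggers GTP hydrolysis by eIF2, had a log2 fold change of -0.50. EIF5B, which joins the ribosomal subunits, had 3536 and 3669 normalized counts in Ctrl and 2556 and 2373 without glucose, a log2 fold change of -0.55. EIF6, which keeps free large subunits from joining and acts in their assembly, had 3402 and 3440.3 in Ctrl and 1818 and 2035 without glucose, a log2 fold change of -0.83 (limma adjusted p = 2.7e-06). Both No glucose libraries were below both controls for each of the 3 genes.

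EIF5A gave the largest change of all members. It encodes the hypusine-bearing factor that rescues ribosomes stalled on difficult peptide bonds (hg38, chr17:7306999-7312463, plus strand). Its normalized counts were 10596 and 10146 in Ctrl and 3054 and 3569.5 without glucose, 31.9% of the Ctrl mean, with a log2 fold change of -1.65 ± 0.07 (SE; limma adjusted p = 4.36e-08). EIF5AL1, a near-identical intronless copy whose reads may come from EIF5A, had 80.7 and 80.3 in Ctrl and 22.7 and 30.9 without glucose, a log2 fold change of -1.57. The paralogue EIF5A2 had 1170.3 and 1030.0 in Ctrl and 902 and 819 without glucose. Its log2 fold change of -0.35 was not called without CTRL_7 or ONG_10 (limma adjusted p = 0.22 and 0.096), nor with scaling to library totals.

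**Figure D3:**
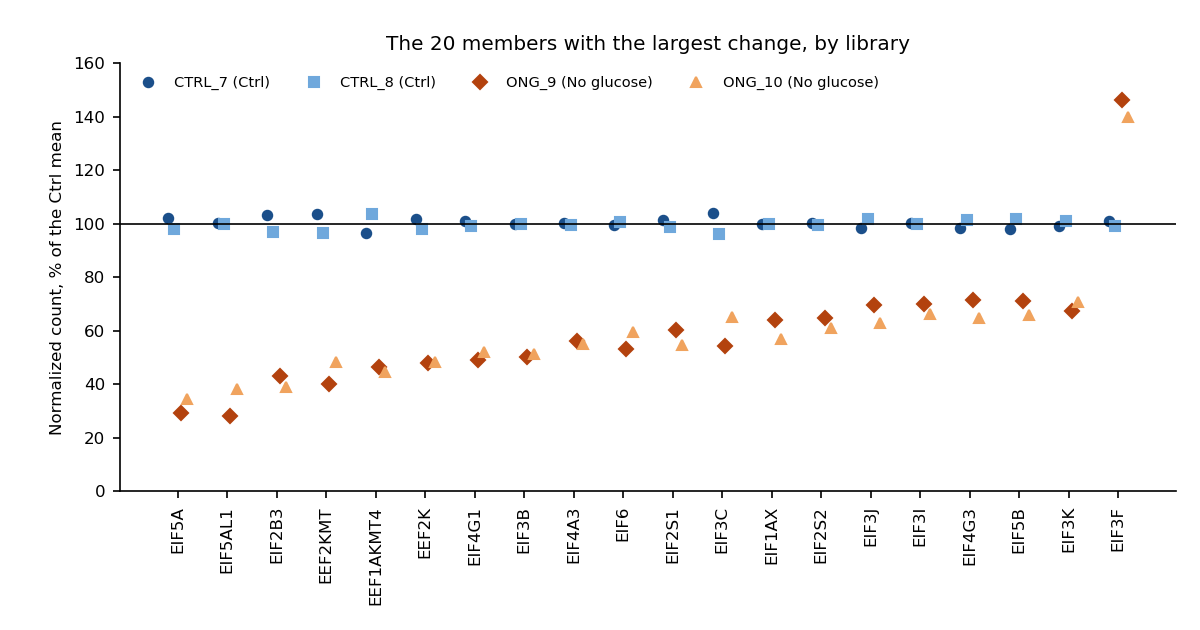
Normalized counts in each library for the 20 called members with the largest absolute log2 fold change, as a percentage of the Ctrl mean. EIF5A and EIF5AL1 lie lowest, EIF4G1 and EIF3B lie near 50%, and EIF3F is the only one of the 20 above its controls.

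The elongation factors that do the work of decoding and translocation did not pass the test. EEF1A1, the main carrier of aminoacyl-tRNA, had 116224 and 117209.6 normalized counts in Ctrl and 122405 and 113909.8 without glucose, a log2 fold change of 0.02 (limma adjusted p = 0.822). EEF2, the translocase, had 48669 and 45443 in Ctrl and 43547 and 55872 without glucose, a log2 fold change of 0.07 (limma adjusted p = 0.613). In both genes the No glucose libraries lay on either side of the controls, so the sign turned with 1 library: EEF1A1 was at -0.04 without ONG_9 (limma adjusted p = 0.011) and at 0.07 without ONG_10 (limma adjusted p = 0.013). EEF2 was at 0.25 without ONG_9 (limma adjusted p = 3.4e-06) and at -0.11 without ONG_10 (limma adjusted p = 0.15). With scaling to library totals EEF1A1 was called higher, at 0.23, and with TMM scaling its log2 fold change was -0.03. Reads of EEF1A1 can be shared with its many processed pseudogenes.

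Of the exchange factors for eEF1A, EEF1B2 had 12994 and 13325 normalized counts in Ctrl and 11296 and 10535 without glucose, a log2 fold change of -0.27 that was not called without CTRL_7 or CTRL_8 (limma adjusted p = 0.12 and 0.16). EEF1D had 1132 and 1001 in Ctrl and 892 and 977 without glucose, a log2 fold change of -0.19 that was not called (limma adjusted p = 0.111). EEF1G, the structural subunit of that complex, was listed at 0 in every library, and in GENCODE 29 99.9% of its exonic bases belong also to another gene on the same strand. EEF1A2, the muscle and neuron form of eEF1A, had 1.03 and 1.34 in Ctrl and 1.52 and 2.81 without glucose, which is a few reads per library.

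Among the genes that modify the elongation factors, a kinase and several methyltransferases fell. EEF2K, the kinase that inhibits eEF2, had 1769.7 and 1704 normalized counts in Ctrl and 834 and 839 without glucose, 48.2% of the Ctrl mean, with a log2 fold change of -1.05 ± 0.07 (SE; limma adjusted p = 5.09e-07). EEF2KMT, a lysine methyltransferase of eEF2, had 309 and 288 in Ctrl and 119.8 and 145 without glucose, a log2 fold change of -1.17. EEF1AKMT4, a lysine methyltransferase of eEF1A, had 341 and 367 in Ctrl and 164 and 157 without glucose, a log2 fold change of -1.14. All 3 were separated from their controls by more than the spread between libraries. EEF2KMT overlaps ALG1 on the opposite strand, and 26.3% of the exonic bases of EEF1AKMT4 are shared with its read-through gene. EEF1AKMT1, EEF1AKMT3 and EEF1AKNMT, which methylate eEF1A, had log2 fold changes of -0.34, -0.50 and -0.24. None of these 3 was called with scaling to library totals or without CTRL_8 (limma adjusted p = 0.31, 0.19 and 0.16). EEF1AKMT1 and EEF1AKNMT were also not called without CTRL_7 (limma adjusted p = 0.091 and 0.28), nor EEF1AKMT1 and EEF1AKMT3 without ONG_10 (limma adjusted p = 0.084 for each). EEF1AKMT2 had a log2 fold change of -0.10 and was not called.

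As a share of all recovered reads, members together took 1.56% ± 0.009 (SD, n = 2) in Ctrl and 1.58% ± 0.003 (SD, n = 2) without glucose. Initiation factors went from 1.001% and 1.013% in the Ctrl libraries to 0.945% and 0.923% without glucose. Elongation factors went from 0.555% and 0.556% to 0.630% and 0.657%. EEF1A1 made up 0.354% ± 0.005 (SD, n = 2) in Ctrl and 0.414% ± 0.014 (SD, n = 2) without glucose. EEF2 made up 0.1465% and 0.1386% in the Ctrl libraries, 0.1509% in ONG_9 and 0.1983% in ONG_10. On this scale, which is that of library totals, the initiation share was lower and the elongation share higher in both No glucose libraries. Most of the elongation share was EEF1A1 and EEF2, so its rise does not describe the other elongation members.

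Ratios between paralogues within a library, taken with 1 added to each normalized count, hardly depend on the scaling between libraries where counts are high. The ratio of EIF4G2 to EIF4G1 was 2.61 and 2.66 in Ctrl and 5.38 and 4.74 without glucose, a change of 0.94 on the log2 scale. EIF5A2 to EIF5A was 0.111 and 0.102 in Ctrl and 0.296 and 0.230 without glucose, a change of 1.298. EIF4G3 to EIF4G1 changed by 0.43, EIF4A2 to EIF4A1 by 0.30 and EIF4E2 to EIF4E by 0.16. In each of these pairs the balance in both No glucose libraries lay further toward the paralogue named before the other. The ratio to EIF4A1 is uncertain, since 48.6% of the exonic bases of EIF4A1 are shared with other annotated genes. EIF1B to EIF1 changed by -0.31, from 0.190 and 0.199 in Ctrl to 0.164 and 0.151 without glucose. EIF4E3 to EIF4E and EEF1A2 to EEF1A1 changed by 0.53 and 0.49 but rest on counts near the limit of detection, and the first of these overlapped between groups. At such counts the added 1 ties both ratios to the scaling. Of the 8 ratios, 7 did not overlap between groups, and for those the exact two-sided permutation p was 0.333, the smallest that 2 libraries against 2 allow.

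**Figure D4:**
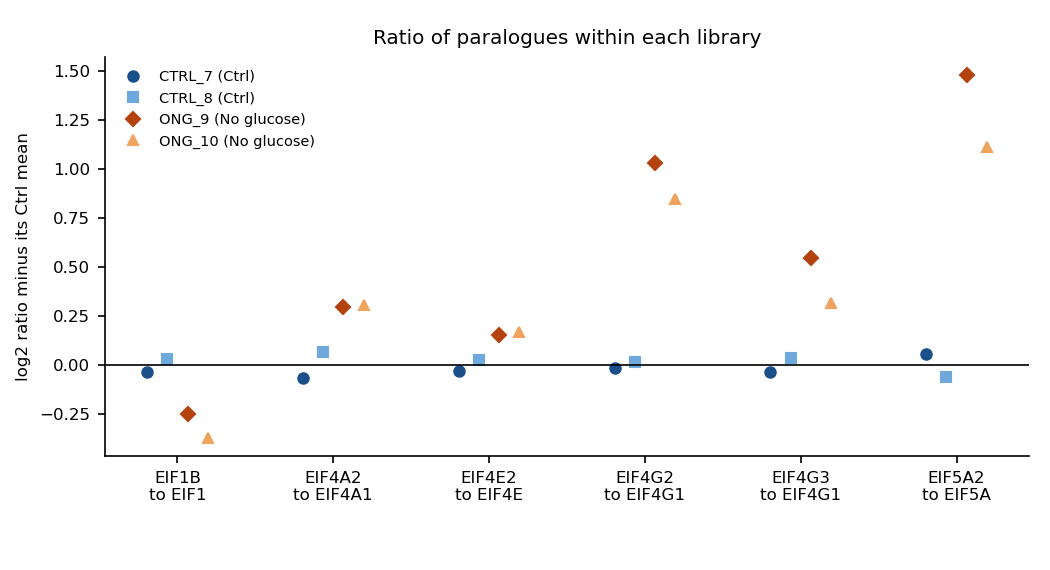
Log2 ratio of paralogous members within each library, minus the mean of that ratio over the Ctrl libraries. The No glucose libraries lie above the controls for EIF5A2 to EIF5A and EIF4G2 to EIF4G1 and below them for EIF1B to EIF1.

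The members known from textbooks to have TOP mRNAs (EEF1A1, EEF1B2, EEF1D, EEF1G, EEF2, EIF3E, EIF3F and EIF3H) included 2 of the 3 members that rose. Of the 7 tested, EEF1B2 was lower, EIF3F and EIF3H were higher, and the median log2 fold change was 0.07. Of the 52 other tested members 37 were lower and 1, EIF1, was higher, with a median of -0.38. These others are not a set without the tract: EIF4A2, EIF4B, EIF2S3 and EIF3K are among those with it in the starts read below. Within eIF3 the 3 members of this textbook list had a median of 0.28 and the 11 others one of -0.40. The starts read from RefSeq could check this split only in part, because EIF3E and EIF3H had no window there. EIF3F had a C and a run of pyrimidines at its listed start. Among the 11 others EIF3D, EIF3K and EIF3M had one too and fell, with log2 fold changes of -0.40, -0.53 and -0.30. The difference between these sets was not tested.

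The letters at the listed transcription starts were then read from RefSeq promoter windows (GRCh38.p14), which were found for 46 of the tested members. A start was counted when its base was a C followed by at least 4 pyrimidines (C or T) on the gene's strand. The 30-base windows below run from 10 bases before the start, and capitals mark the tract from the listed start on. They show the tract in EIF3F, which rose, in 4 members that were not called, and in EEF1B2, EIF2S3 and EIF3K, which fell.
EEF1A1: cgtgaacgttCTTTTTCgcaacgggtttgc
EEF2: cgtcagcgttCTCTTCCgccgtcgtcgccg
EIF3F: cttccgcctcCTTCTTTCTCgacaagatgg
EIF4A2: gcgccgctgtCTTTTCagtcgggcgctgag
EIF4B: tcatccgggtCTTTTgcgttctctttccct
EEF1B2: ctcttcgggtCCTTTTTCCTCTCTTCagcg
EIF2S3: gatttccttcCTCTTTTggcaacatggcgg
EIF3K: tttccaccacCTCTTCCTgttcccgtcctt
These lie at chr6:73521013-73521042 (minus strand) for EEF1A1, chr19:3985444-3985473 (minus) for EEF2, chr11:7987327-7987356 (plus) for EIF3F, chr3:186783567-186783596 (plus) for EIF4A2 and chr12:53006446-53006475 (plus) for EIF4B. Those of EEF1B2, EIF2S3 and EIF3K lie at chr2:206159885-206159914, chrX:24054946-24054975 and chr19:38619178-38619207, all on the plus strand. For contrast, the same window is shown for 3 members that fell and whose listed start lacks the tract.
EIF3B: tcgcacgcacatggctgggctgtagccgtc
EIF2S1: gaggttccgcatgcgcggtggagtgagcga
EIF6: tggtaagctggtgtgaggggaacctgggag
These lie at chr7:2354817-2354846 (plus strand), chr14:67360318-67360347 (plus) and chr20:35284698-35284727 (minus).

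Such a start was listed for 13 of the 46 members (28.3%) and for 1404 of 27305 genes with a window (5.14%). Over the 8667 other protein-coding genes that averaged 50 or more it was listed for 659 (7.6%). Of the 13 members with it 5 fell and EIF3F rose, and the median log2 fold change was 0.02. Of the 33 without it 26 were lower and EIF1 was higher, with a median of -0.50. Within eIF3, of 4 members with it EIF3D, EIF3K and EIF3M fell and EIF3F rose, with a median of -0.35 and a range from -0.53 to 0.52. All 4 without it (EIF3B, EIF3C, EIF3I and EIF3J) fell, with a median of -0.67 and a range from -0.98 to -0.56. The other eIF3 members, EIF3E and EIF3H among them, had no window. Among the other protein-coding genes the median was -0.19 for the 659 with such a start and -0.20 for the 8008 without, and 47.8% and 47.3% were lower. With scaling to library totals the members' medians were 0.23 and -0.29. A match describes letters at a listed start, and no match says only that these letters are not there.

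A second set of letters searched in the same windows, from 250 bases before to 50 after each start, was CACGTG, the E-box core bound by MYC, MondoA and related factors and the same on both strands. It was present for 12 of the 46 members (26.1%), for 2396 of 27305 genes (8.77%) and for 1123 of the 8667 other coding genes that averaged 50 or more (12.96%). The windows of the 5 members with the motif that fell most, and of EIF3F, the 1 that rose, are shown with it in capitals.
EIF4G1: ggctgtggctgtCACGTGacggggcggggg
EIF4G1: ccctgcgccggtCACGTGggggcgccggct
EIF2B3: gacagagggacaCACGTGtcgaatgctcct
EEF1AKMT4: cagtgatgagccCACGTGagtctgacacct
EEF1AKMT4: ggacggaagttcCACGTGtttgtgttgagc
EIF4A3: ccagttccctttCACGTGacgaagagtgcc
EEF2K: cctgggggcggcCACGTGagcgccacgccg
EIF3F: aaagctctagctCACGTGgtgtatattcag
The EIF4G1 pair lies at chr3:184314450-184314479 and chr3:184314527-184314556 (plus strand), and the EEF1AKMT4 pair at chr3:184249431-184249460 and chr3:184249563-184249592 (plus). The windows of EIF2B3, EIF4A3, EEF2K and EIF3F lie at chr1:44986757-44986786 (minus), chr17:80147232-80147261 (minus), chr16:22206207-22206236 (plus) and chr11:7987257-7987286 (plus). Of the 12 members with CACGTG 9 fell and EIF3F rose, and their median log2 fold change was -0.51. Of the 34 without it 22 fell and EIF1 rose, and their median was -0.31. Among the other protein-coding genes that averaged 50 or more the medians were -0.29 for 1123 with the motif and -0.19 for 7544 without, and 52.4% and 46.6% were lower. EIF5A, which changed most, has no CACGTG in its windows, and nothing about a factor's binding follows from either case.

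**Figure D5:**
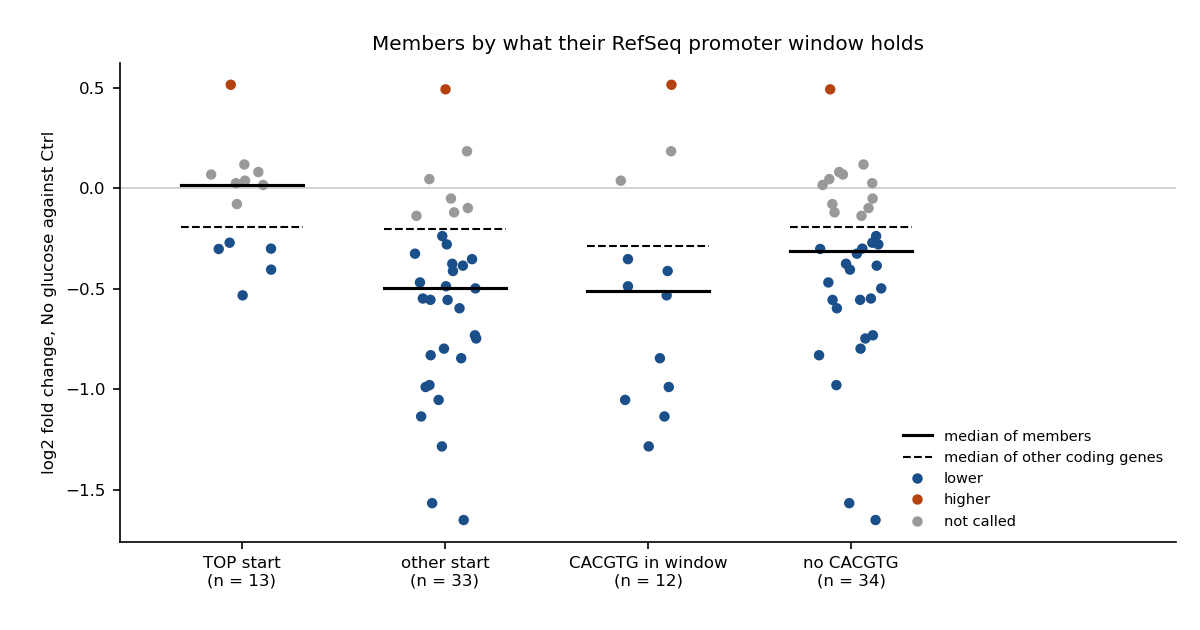
Log2 fold change, No glucose over Ctrl, of tested members with and without a TOP-like start and with and without CACGTG in the RefSeq window, each point 1 member coloured by its limma call, each solid line the members' median and each dashed line the median of other coding genes. The median is 0.02 for members with a TOP-like start and -0.50 for those without, and -0.51 and -0.31 with and without CACGTG.

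The genes that regulate or accompany these factors were counted from fixed lists. Of 49 tested that are not members, 32 fell (65.3%) and 5 rose (10.2%), and their median log2 fold change was -0.34, against 47.2% lower, 18.9% higher and a median of -0.20 for coding genes that averaged 50 or more. Among the eIF2 kinases and phosphatase subunits 4 of 7 tested were lower and 2 higher. PPP1R15A (GADD34), the stress-induced subunit that returns eIF2 alpha to its unphosphorylated state, rose most, from 665 and 630.0 normalized counts in Ctrl to 3057 and 3206 without glucose, a log2 fold change of 2.27 ± 0.07 (SE; limma adjusted p = 6.21e-09). EIF2AK4 (GCN2), the amino acid sensor, had a log2 fold change of -1.001, EIF2AK2 (PKR), the double-stranded RNA sensor, of -0.89 and EIF2AK1 (HRI), the heme sensor, of -0.54. EIF2AK3 (PERK), the kinase of the endoplasmic reticulum, was the other gene of the list that was higher, at 0.32, and only PPP1R15A was called higher without CTRL_7 or without CTRL_8.

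Of 10 cap and eEF2 regulators 7 were lower and none higher. EIF4EBP1, the repressor that binds eIF4E, had 1145 and 1083 normalized counts in Ctrl and 476 and 463 without glucose, a log2 fold change of -1.24 (limma adjusted p = 4.21e-07). MKNK2, a kinase of eIF4E, had a log2 fold change of -0.66. Thus transcripts of eIF4E, of its repressor and of EEF2K were all lower in both No glucose libraries.

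In termination and ribosome recycling 4 of 6 genes were lower. ABCE1, which splits ribosomes after termination, fell by 0.96, ETF1 (eRF1), the stop codon reader, by 0.84, and GSPT1 (eRF3a), its GTPase partner, by 0.72. GSPT2, the close paralogue of GSPT1, had a log2 fold change of 0.29, called in the full set but not without CTRL_7 or CTRL_8 (limma adjusted p = 0.11 and 0.23). Of 5 initiation helpers 4 were lower, among them ABCF1 at -0.71, DENR at -0.63 and DHX29 at -0.30. DHX29 was not called without CTRL_7 or CTRL_8 (limma adjusted p = 0.13 and 0.064), and 2 helpers were lower in each of those fits.

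Of 5 genes of the poly(A)-binding list 2 were lower and 2 higher. PABPC4 fell by 0.49. PAIP2B had a log2 fold change of -0.61 that was not called without CTRL_7 (limma adjusted p = 0.098). PABPC1, the main cytoplasmic poly(A)-binding protein, had 15503 and 15496 normalized counts in Ctrl and 18605 and 17082 without glucose, a log2 fold change of 0.20 that was not called without CTRL_7 or CTRL_8 (limma adjusted p = 0.27 and 0.30).

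Of 9 enzymes that build hypusine on eIF5A or diphthamide on eEF2, 6 were lower (2 without CTRL_7, 3 without CTRL_8) and none higher. DPH2, a diphthamide synthase subunit, fell by 0.70, and DPH6, the enzyme of the last diphthamide step, by 0.50. DOHH, the hydroxylase that completes hypusine, had a log2 fold change of -0.72, but its libraries scattered, at 287 and 237 in Ctrl and 117 and 212 without glucose, and it was not called without CTRL_7 or ONG_9 (limma adjusted p = 0.25 and 0.086). Of 8 mitochondrial translation factors 6 were lower (3 without CTRL_7) and none higher, led by TUFM, the mitochondrial EF-Tu, with 8104 and 7877 in Ctrl and 3841 and 3835 without glucose and a log2 fold change of -1.06. GFM1 and GFM2, the mitochondrial translocase and recycling factors, had log2 fold changes of -0.51 and -0.46.

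Among 56 members with an adjusted p in the authors' deposited table, 35 were lower and 3 higher at the same threshold. All 38 of those calls were made by limma in the same direction, and EEF1AKMT1, EEF1AKMT3 and EIF4A1 were called by limma alone.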

How the data were processed

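Total RNA from 4 samples was sequenced with a stranded kit, per the labels' protocols. The submitters' processing notes name STAR 2.6.0c, RSEM 1.3.0, DESeq2 1.18.1 and the build hg38, and the annotation release and counting strand are not given in the sources used here. The deposited signal values are normalized counts, divided by the authors by 1 size factor per library. The authors' deposited log2 fold changes and standard errors, score (test statistic), p-values and adjusted p-values served only for the count of the authors' calls. The No glucose group was read from the ONG columns, since the table compares only these groups and its other columns are named CTRL. Columns map to groups, not to numbered replicates.

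All values above 0 (100%) came out within 0.01 of a whole read when divided by the library's smallest step. The planned test for counts was edgeR and for other units limma. As the table holds normalized counts, limma 3.58.1 with trend in R 4.3.3 was run on log2(normalized count + 1) for 27486 genes with a mean of at least 1, two-sided, with Benjamini-Hochberg adjustment at 0.05, after a check on simulated data. On the recovered reads, edgeR 4.0.16 with TMM called 10256 genes, against 9643 for limma. Alternatives also used DESeq2 1.42.0, limma-voom, library totals, pseudocounts of 0.5 and 5, other filters, and omission of each library.

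Members and gene lists were chosen with earlier results of these data known. Per-library values are given for the 20 called members with the largest change among those with a mean of at least 50 and groups that do not overlap, for the main eEF genes, for paralogue pairs and for members singled out after their values were seen (EIF3H and EIF4B). From each companion list up to 3 called genes of the commoner direction and 1 of the opposite one are named, and EIF2AK3 was added after its value was seen. Gene coordinates and exon overlaps are from GENCODE 29. Protein sequences were not used here.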

Additional observations from a re-analysis of the deposited data

How the results depend on the processing

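Of 41 called members 26 kept their call and direction under all 14 alternatives, and none of the 41 reversed. Leaving out CTRL_7 ended 14 of the 41 calls, and leaving out CTRL_8 or scaling to library totals ended 12. Library totals moved the median of all genes from 0.04 to 0.28 (edgeR) or 0.24 (limma), where all genes gave 3979 lower and 6736 higher by edgeR and 3821 lower and 6104 higher by limma, against 5695 and 3948. The members' median became -0.11 (edgeR) or -0.13 (limma), and 12 or 11 members were higher. By both tools at library totals, counts of higher members became 2 for eIF1, 1 for eIF2, 4 for eIF3, and 1 each for eIF4A, eIF4G, eIF4B with eIF4H, and eEF1, with 1 for eEF2 by edgeR only. Counts of lower members became 2 for eIF2B and 1 each for eIF4A, eIF4E and eEF1. Among companions, higher counts became 1 for cap and eEF2 regulators, 1 for initiation helpers, 2 for termination and recycling and 1 for hypusine and diphthamide enzymes, and lower counts 2 for initiation helpers and 2 for hypusine and diphthamide enzymes, with 1 lower in the poly(A)-binding list by limma. DESeq2 gave 1 lower eIF4A and 3 lower eEF1 members, and 1 poly(A)-binding gene was higher by edgeR with TMM, DESeq2, limma-voom and without a filter.

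Signs that turned belonged to uncalled members near 0. At library totals (edgeR, then limma) EEF1AKMT2 was 0.12 and 0.11, EEF1D 0.012 and 0.021, EIF2D 0.13 and 0.13, EIF2B2 0.090 and 0.091, EIF4ENIF1 0.076 and 0.074, and EIF4G2 0.16 and 0.16. With TMM (edgeR, then limma-voom) EEF1A1 was -0.026 and -0.024, EIF2S3B -0.043 and -0.029, EIF4A2 -0.017 and -0.012, and EIF4B -0.0044 and -0.00088. EIF2S3B was -0.0035 by edgeR with DESeq2 size factors. The cause was not tested.

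Leaving out 1 library at a time, where the lone sample of a group is assumed to vary like the other group, gave 25 (without CTRL_7) to 41 (without ONG_9) lower members and 2 (without either control) to 9 (without ONG_10) higher. Lower counts ran from 1 to 2 for eIF1, 2 to 4 for eIF2B, 1 to 2 for eIF4A, 1 to 3 for eIF4E and 1 to 7 for eEF1, and higher counts from 1 to 2 for eIF1, 0 to 1 for eIF2, 1 to 4 for eIF3, 0 to 1 for eIF4B with eIF4H, 0 to 1 for eEF1 and 0 to 1 for eEF2. Among companions, higher counts ran from 1 to 3 for eIF2 kinases, 0 to 2 for poly(A)-binding and 0 to 1 for termination, and lower counts from 1 to 3 for poly(A)-binding, 2 to 4 for initiation helpers, 2 to 6 for hypusine and diphthamide enzymes and 3 to 6 for mitochondrial factors. Log2 fold changes ran from -0.035 to 0.069 for EEF1A1, -0.11 to 0.25 for EEF2, -0.14 to 0.375 for EIF2S3B, -0.019 to 0.070 for EIF4A2, -0.015 to 0.092 for EIF4B and -0.56 to 0.65 for EIF4E3. No paired analysis was possible because the columns carry no replicate numbers, and the fit with a replicate block was not run. With 2 libraries per group, changes near 0.2 on the log2 scale rest on a spread borrowed across genes, and EEF1A2, EIF3CL and EIF4E3 are limited by counts of a few reads.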
